A study of Mus musculus with 12 samples.

Results

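The collagen gene family was represented by 36 genes among the 12393 genes measured on these mouse arrays. A gene was a member if its symbol read Col, a number, a, and a number, and if a probe set (the group of short probes that reports 1 transcript) was annotated to that gene alone. The members had 58 such probe sets, 19 genes had several, and the brightest of them by mean log2 signal stood for the gene. By the kind of matrix they build, 6 members were placed in the fibrillar class, 7 in the cartilage class, 9 in the basement membrane class and 14 among the other collagens.

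Collagens are secreted proteins whose chains wind around each other into helical rods. Fibrillar collagens then align into the fibres that bear load in skin, tendon and the sheaths of muscle, whereas type IV collagen forms the sheet-like network of basement membranes, which surround muscle fibres, vessels and epithelia. Other members decorate fibrils, form beaded filaments (type VI) or stay anchored in the cell membrane (type XIII). In the embryo, muscle progenitors move through and later rest in a matrix of this kind, and connective tissue cells are its main makers.

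The samples were muscle progenitors from ICR mouse embryos of the genotype Myf5Cre;RosaYFP, which all groups shared. In these embryos cells that have switched on Myf5, a muscle determination gene, become permanently fluorescent together with their descendants, and the fluorescent cells of the head or of the trunk were collected by flow cytometry. Head and trunk cells were taken at 3 ages, embryonic day 9.5 (E9.5), 10.5 (E10.5) and 11.5 (E11.5), and each of the 6 groups had 2 arrays, 12 in all. The reporter follows every descendant of a Myf5-expressing cell, whatever it later becomes, and it is not stated in the labels if paired arrays came from separate embryos, litters or pools, so each p-value speaks only to the spread among these samples.

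The median signal of an array lay between 108.6 and 110.4 intensity units, and the arrays of a group correlated with Pearson r of 0.948 to 0.965 across probe sets, which are not independent replicates. At E10.5, replicate 1 in both tissues stood apart in Xist, the transcript of the inactive X chromosome, with log2 signals of 6.37 to 7.35 against 11.89 to 13.1 on the other 10 arrays. In the same pair of groups replicate 1 was above replicate 2 for 21 of the 23 collagens tested in head (median log2 difference 0.51) and for 17 of 23 in trunk (0.16), whereas over all genes tested it was above for 48.3% and 47.6%. Calls that were lost without both of these arrays are named with the results. All 10 muscle lineage markers lay above the median probe set on at least 1 array, but so did all 10 neuron and all 10 epithelium markers, so the labelled cell type is not set apart by this measure. At E9.5, 6 of the muscle markers in head and 3 in trunk lay below the median on both arrays. The summed signal of the muscle list was 2803 to 3221 in head and 3208 to 5574 in trunk at E9.5, and 16658 to 18176 and 14793 to 18656 at E11.5. In head at E9.5 it lay below the sums of the neuron list (5802 to 9857) and the epithelium list (7423 to 8306). Such sums depend on the genes listed and on their probe sets, so they do not measure the shares of cell types.

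To be tested a gene had to exceed the median probe set of the array on 2 or more of the 12 arrays, which 7711 genes did, 23 collagens among them. The 13 collagens that were not tested were Col5a3 of the fibrillar class, Col9a2, Col10a1 and Col11a2 of cartilage, Col4a3, Col4a4 and Col4a6 of basement membranes, and Col8a1, Col12a1, Col17a1, Col20a1, Col22a1 and Col25a1. Of these, Col4a6 lay above the median on 1 array and the others on none, so their signals give no usable measure of change. Col9a3 entered with 2 arrays above the median. Differences were tested on log2 signal with limma, with Benjamini-Hochberg adjustment over all genes tested and a threshold of 0.05. A fold is written "at least" where the lower group held an array under the median probe set, which then served as its floor. As RNA was measured from whole sorted populations, fewer cells of a type and less RNA per cell cannot be told apart.

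**Figure D1:**
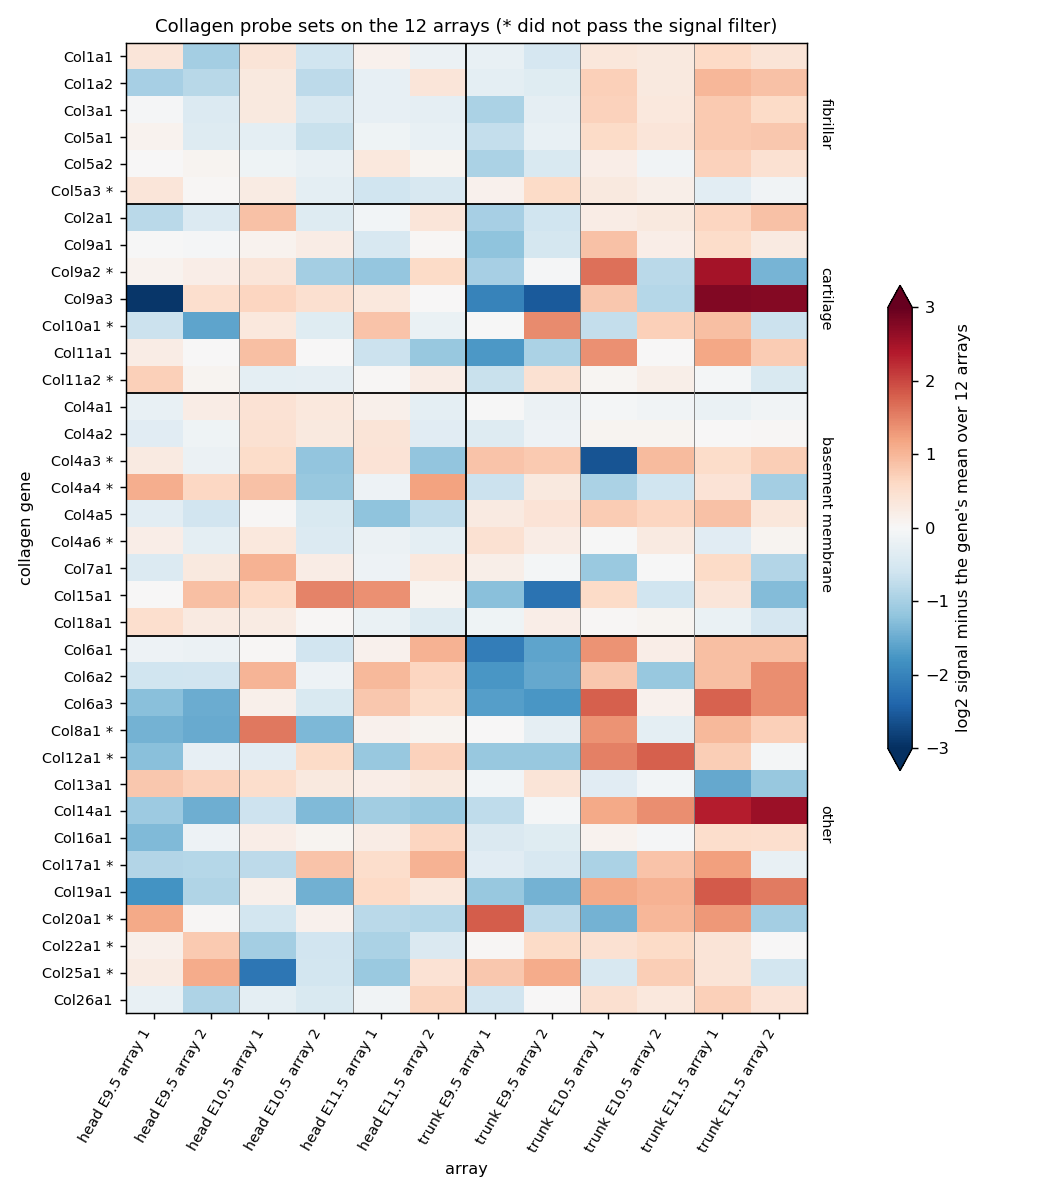
Log2 signal of the 36 collagens (rows, by class; an asterisk marks the 13 not tested) on the 12 arrays (columns), each as the difference from the gene's mean over the arrays, in colour from blue (below) to red (above). In the rows of Col3a1, Col5a1, Col5a2, Col6a1, Col6a2, Col6a3 and Col14a1 the trunk columns run from blue at E9.5 to red at E11.5, whereas Col4a1 and Col4a2 stay pale in all columns.

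The broadest change was a rise of collagen transcripts in trunk cells from E9.5 to E11.5. There 13 of the 23 tested collagens rose and 1 fell, where 8.71% of all genes tested rose and 4.71% fell. Since a gene can pass the filter through the group in which it is bright, the fit was repeated without a filter on all 36 members: 13 rose and 1 fell, the same 14 genes, where 5.19% of 12393 genes rose and 2.53% fell. The median log2 difference of the 36 members in that fit was 0.91, against −0.03 for all genes. By class, and without a filter, the rise took in 4 of 6 fibrillar, 4 of 7 cartilage, 0 of 9 basement membrane and 5 of 14 other collagens. The number tested with the filter was 5, 4, 6 and 8.

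Among the fibrillar collagens, Col1a2, Col3a1, Col5a1 and Col5a2 rose in trunk by about the same amount. Col1a2 encodes a chain of type I collagen, the bulk collagen of skin, bone and tendon. Its signal was 2834 and 2715 on the trunk arrays at E9.5, 5702 and 4272 at E10.5, and 7000 and 6474 at E11.5. In head it was 1757 and 1951, 4260 and 2028, and 2942 and 4465 at the same stages. Thus the E11.5 arrays of trunk lay above all others, and those of head overlapped with the E10.5 arrays. The rise in trunk was 2.43-fold (log2 1.28 ± 0.29, SE from limma with 2 arrays per group, adjusted p = 0.0122), and the change in head was 0.97 ± 0.29 (adjusted p = 0.0849).

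Col3a1 encodes the type III chain of compliant tissues, which is laid down early and often in the same fibrils as type I. Its signal in trunk was 2575 and 4142 at E9.5, 7966 and 6219 at E10.5, and 8477 and 7397 at E11.5. Its signal in head was 4796 and 3736, 6081 and 3535, and 4166 and 4107. The tissues overlapped at E9.5, and at E11.5 both trunk arrays lay above both head arrays. The rise in trunk was 2.42-fold (log2 1.28 ± 0.26, adjusted p = 0.00686), and the head value was −0.03 (95% confidence interval −0.59 to 0.53).

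Col5a1 and Col5a2 encode chains of type V collagen, which sits inside type I fibrils, starts their assembly and limits their width. Col5a1 signal in trunk was 622 and 871 at E9.5, 1507 and 1306 at E10.5, and 1745 and 1794 at E11.5. On the head arrays it was 1088 and 775, 832 and 644, and 931 and 873. Head arrays after E9.5 lay within or below the range of head at E9.5, while every later trunk array lay above it. The rise in trunk was 2.4-fold (log2 1.26 ± 0.22, adjusted p = 0.00328). Col5a2 measured 1220 and 1717, 2697 and 2177, and 3786 and 3229 in trunk, and 2339 and 2472, 2122 and 2012, and 2897 and 2474 in head. Its rise in trunk was 2.42-fold (log2 1.27 ± 0.18, adjusted p = 0.000818), and its head value was 0.15 ± 0.18. Col1a1, the partner chain of Col1a2, gave 0.85 ± 0.40 in trunk and did not pass (adjusted p = 0.203). Its replicate arrays lay far apart at E9.5 in head, at 520.2 and 199.

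The sequences just upstream of 5 collagens are shown because these genes rose together in trunk. RefSeq promoter windows (assembly GRCm38.p6) were found for 27 of the 36 collagen genes. The 250 bases before an annotated transcript start are printed 5′ to 3′ on the gene's strand for 3 fibrillar members, for Col11a1 and for Col6a3, with capitals at every match to a common promoter box. The box named CCAAT was searched by those letters. For the GC box the letters GGGCGG were searched. For the TATA box they were TATAAA. A match on the other strand appears as its reverse complement.
Col1a2: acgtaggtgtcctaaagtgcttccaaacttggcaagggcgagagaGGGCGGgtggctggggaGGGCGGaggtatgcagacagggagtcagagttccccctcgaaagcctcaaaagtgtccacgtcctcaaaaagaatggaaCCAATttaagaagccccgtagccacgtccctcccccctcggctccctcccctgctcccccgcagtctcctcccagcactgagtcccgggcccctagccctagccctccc
Col3a1: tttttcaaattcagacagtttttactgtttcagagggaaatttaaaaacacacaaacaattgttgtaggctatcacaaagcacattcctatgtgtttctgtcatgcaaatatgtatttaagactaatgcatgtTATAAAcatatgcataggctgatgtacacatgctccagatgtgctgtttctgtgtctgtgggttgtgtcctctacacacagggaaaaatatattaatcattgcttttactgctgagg
Col5a1: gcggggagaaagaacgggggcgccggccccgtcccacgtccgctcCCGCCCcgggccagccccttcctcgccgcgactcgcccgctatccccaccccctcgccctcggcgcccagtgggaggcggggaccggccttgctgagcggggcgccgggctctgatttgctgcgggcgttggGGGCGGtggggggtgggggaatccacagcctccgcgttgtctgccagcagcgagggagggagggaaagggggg
Col11a1: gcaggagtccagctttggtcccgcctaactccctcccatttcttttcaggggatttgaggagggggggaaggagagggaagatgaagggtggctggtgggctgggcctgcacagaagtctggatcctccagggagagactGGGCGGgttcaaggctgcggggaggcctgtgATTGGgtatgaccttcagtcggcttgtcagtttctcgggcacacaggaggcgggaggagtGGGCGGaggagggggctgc
Col6a3: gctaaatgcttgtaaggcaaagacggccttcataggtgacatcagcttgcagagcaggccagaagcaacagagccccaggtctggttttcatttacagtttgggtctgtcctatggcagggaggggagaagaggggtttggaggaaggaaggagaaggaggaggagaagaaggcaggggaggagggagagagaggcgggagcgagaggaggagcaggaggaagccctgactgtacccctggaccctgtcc
The Col1a2 window lies at chr6:4505368-4505617 on the + strand, Col3a1 at chr1:45311288-45311537 (+), Col5a1 at chr2:27886175-27886424 (+), Col11a1 at chr3:114030290-114030539 (+) and Col6a3 at chr1:90843972-90844221 (−). Because RefSeq also places a start further upstream for some genes, 44 bases of the Col5a1 window, 61 of Col11a1 and 30 of Col6a3 lie within the annotated gene, and 0 of the other two. Col1a2 holds 2 GC-box and 1 CCAAT match, Col3a1 1 TATA match, Col5a1 2 GC-box matches, Col11a1 2 GC-box and 1 CCAAT match, and Col6a3 none of the 3. Searched on both strands, with no overlap between motifs in the printed windows, CCAAT stood in 12 of 30 collagen windows (40%) and in 33.8% of all 32851 windows. GGGCGG stood in 16 (53.3% against 32.7%) and TATAAA in 5 (16.7% against 12.4%). A match describes letters only, and none of the 3 motifs stands in all 5 printed windows.

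The cartilage collagens rose in trunk as well. Col2a1 encodes the main fibril chain of cartilage, Col9a1 a chain of type IX that coats those fibrils, and Col11a1 a chain of type XI that lies within them. Col2a1 signal in trunk was 308 and 406 at E9.5, 721 and 759 at E10.5, and 960 and 1139 at E11.5, a 2.96-fold rise (log2 1.56 ± 0.34, adjusted p = 0.0106). In head it was 349 and 467, 1128 and 473, and 585 and 793, and the change did not pass (0.75 ± 0.34, adjusted p = 0.277). The single highest head array was thus replicate 1 at E10.5.

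Col9a1 signal in trunk was 1023 and 1639 at E9.5, 4369 and 2739 at E10.5, and 3471 and 2844 at E11.5. Head arrays gave 2362 and 2333, 2570 and 2776, and 1717 and 2435. The trunk arrays of E9.5 were the lowest of the 12, and all the later trunk arrays lay above the head arrays of E9.5. The rise in trunk from E9.5 to E11.5 was 2.43-fold (log2 1.28 ± 0.26, adjusted p = 0.00713). Col9a3, another type IX chain, was below the median probe set on 10 arrays and measured 130 and 127 on those of trunk at E11.5. Its rise was at least 1.17-fold (adjusted p = 0.0222), a bound set by the floor, and its fitted log2 value of 5.03 ± 1.29 rests on signals of 4.7 and 3.3 at E9.5.

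Col11a1 rose in trunk, and its course differed between the tissues. In trunk its signal was 146 and 248 at E9.5, 1256 and 487 at E10.5, and 1080 and 813 at E11.5. In head it was 565 and 485, 902 and 490.5, and 306 and 221. Head thus started above trunk on both arrays and ended below it on both. The rise in trunk was 4.92-fold (log2 2.30 ± 0.43, adjusted p = 0.00426), and the head value was −1.01 ± 0.43 (adjusted p = 0.235).

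Of the 9 basement membrane collagens, 0 were called as rising in trunk without a filter, where 5.19% of all genes rose. That number is near the background and does not set the class apart. Col4a1 and Col4a2 encode the chains of the type IV network found in nearly every basement membrane. Col4a1 signal was 4779 and 4277 in trunk at E9.5 and 4222 and 4484 at E11.5, with a log2 difference of −0.06 and a 95% confidence interval of −0.41 to 0.30. The head signal was 4159 and 5654 at E9.5 and 5385 and 3958 at E11.5, with a difference of −0.07 (−0.43 to 0.28). Col4a2 gave 0.29 (−0.17 to 0.76) in trunk and 0.25 (−0.22 to 0.72) in head. A second Col4a1 probe set gave 0.78 in trunk and did not pass either (adjusted p = 0.18). The 2 genes are transcribed away from each other, and the annotated transcript starts used here lie 21 bases apart. For both genes the upper bound of the trunk interval lay below the fitted log2 1.26 to 1.28 of the fibrillar genes that rose. Those fitted values have a spread of their own, and the genes were not tested against each other. The second Col4a1 probe set, at 0.78, lay above the interval given for Col4a1.

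Col18a1 and Col15a1 encode basement membrane proteoglycans whose cleaved ends act on vessels. Col18a1 signal was 4096 and 3503 in head at E9.5, 3471 and 2963 at E10.5, and 2535 and 2237 at E11.5. It was 2659 and 3346, 2995 and 3094, and 2546 and 2059 in trunk. The fall in head from E9.5 to E11.5 was 1.59-fold (log2 −0.67 ± 0.16, adjusted p = 0.0361), and the trunk value was −0.38 ± 0.16 (adjusted p = 0.157). Col15a1 gave 1.28 ± 0.68 in trunk (adjusted p = 0.261), and Col7a1, the anchoring fibril collagen of the skin, gave −0.21 ± 0.52.

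Type VI collagen, which forms beaded filaments around cells and in the muscle endomysium, rose in trunk in all 3 chains measured. Col6a3 signal in trunk was 103 and 95.9 at E9.5, 1106 and 352 at E10.5, and 1092 and 840.1 at E11.5. In head it was 134 and 114, 359 and 234, and 560.2 and 474. Both tissues therefore stepped up from arrays near the median probe set. The rise was at least 8.76-fold in trunk (log2 3.27 ± 0.42, adjusted p = 0.000366) and 4.16-fold in head (2.06 ± 0.42, adjusted p = 0.0143), where Col6a3 was the one collagen that rose. The difference between those rises did not pass (−1.21 ± 0.59, adjusted p = 0.445).

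Col6a1 signal in trunk was 30.5 and 42.6 at E9.5, 326 and 146 at E10.5, and 239.6 and 238 at E11.5, a rise of at least 2.18-fold (log2 2.73 ± 0.42, adjusted p = 0.00129). Col6a2 signal was 108 and 126, 642 and 164, and 677 and 965, a rise of at least 6.9-fold (2.79 ± 0.52, adjusted p = 0.00434). In head Col6a1 gave 0.76 ± 0.42 and Col6a2 1.40 ± 0.52, and neither passed (adjusted p = 0.395 and 0.166).

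Col14a1 and Col19a1 encode collagens that bind to the surface of other fibrils. Col14a1 signal in trunk was 134 and 219 at E9.5, 501 and 600 at E10.5, and 1170.4 and 1344 at E11.5. The corresponding head arrays read 107 and 81.6, 148 and 91.1, and 110.3 and 104. Every later trunk array exceeded every head array, and the head arrays stayed near the median probe set. The rise in trunk was 7.33-fold (log2 2.87 ± 0.30, adjusted p = 0.000111), and the head value was 0.20 (95% confidence interval −0.46 to 0.85). Col19a1 rose by at least 1.7-fold in trunk (2.97 ± 0.57, adjusted p = 0.00511), from 26.3 and 21.5 to 205 and 169. It lay above the median probe set on 4 arrays only, those of trunk at E10.5 and E11.5. The fitted log2 value thus rests on E9.5 signals under the floor. Its other probe set lay above the median on 0 arrays and gave −0.37 in trunk. In head, where all arrays lay below the median, Col19a1 gave 1.81 ± 0.57 (adjusted p = 0.101).

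Col13a1, a membrane-bound collagen that matures the contact between nerve and muscle, was the one collagen that fell in trunk. Its signal in trunk was 302 and 415 at E9.5, 251 and 301 at E10.5, and 109.7 and 146 at E11.5. In head it was 559.8 and 513, 464 and 389, and 369 and 389.6. The trunk arrays of E11.5 were the lowest of the 12. The fall in trunk was 2.79-fold (log2 −1.48 ± 0.23, adjusted p = 0.00138), and the head value was −0.50 ± 0.23 (adjusted p = 0.291). The remaining tested members, Col16a1 and Col26a1, had positive values near each other in both tissues, 0.92 and 0.84 in trunk and 1.19 and 0.86 in head, and none of these passed (adjusted p 0.0603 to 0.15).

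**Figure D2:**
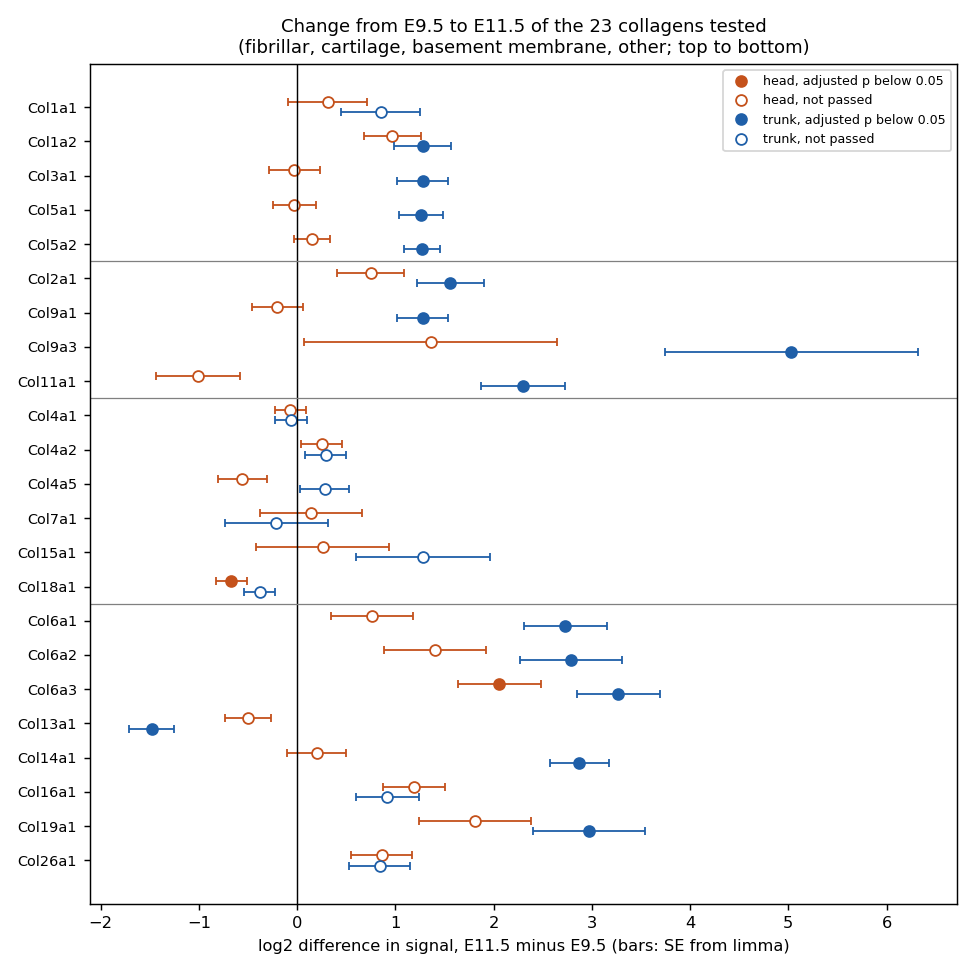
Log2 difference in signal from E9.5 to E11.5 (horizontal axis) of the 23 collagens tested, by class from top to bottom, in head (orange) and trunk (blue); bars are the SE from limma and filled points passed the threshold. Trunk points of the fibrillar and cartilage classes lie to the right of the head points, those of Col4a1 and Col4a2 lie together near 0, and Col13a1 lies to the left.

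**Figure D3:**
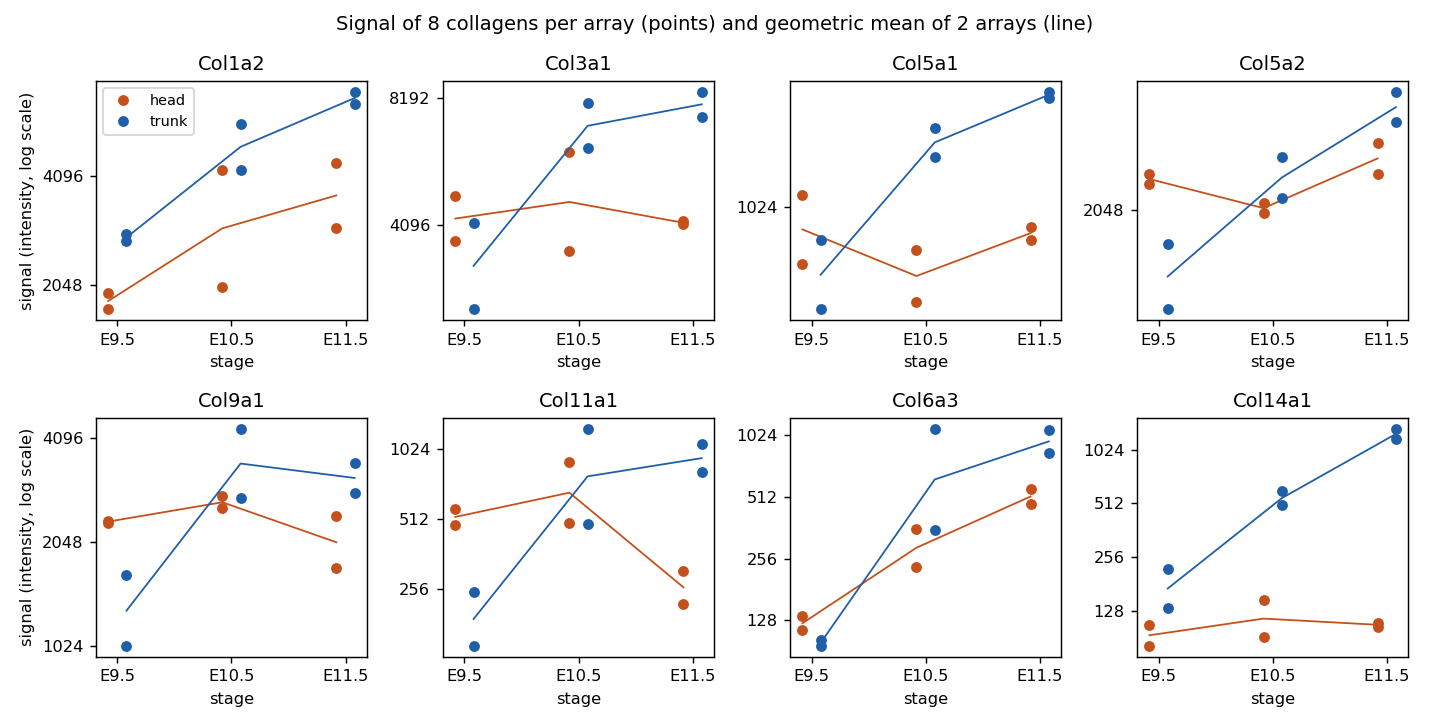
Signal of 8 collagens (vertical axis, intensity on a log scale that differs between panels) by stage, with 1 point per array in head (orange) and trunk (blue) and a line through the geometric mean of the arrays of a group. Trunk lines end above their start in all 8 panels; head lines climb for Col1a2 and Col6a3, stay level for Col14a1 and end below their start for Col11a1.

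The trunk change from E9.5 to E11.5 depended on single arrays for 6 of its 14 calls. Without trunk E9.5 replicate 1, Col1a2, Col2a1, Col3a1, Col9a1, Col9a3 and Col11a1 no longer passed (adjusted p 0.0515 to 0.0922). Without E11.5 replicate 1 this held for Col1a2, Col9a1 and Col9a3 (0.0575 to 0.142), without E11.5 replicate 2 for Col1a2, Col2a1 and Col9a3 (0.0552 to 0.145), and without E9.5 replicate 2 for Col1a2 and Col9a3 (0.0547 and 0.0696). Col5a1, Col5a2, Col6a1, Col6a2, Col6a3, Col13a1, Col14a1 and Col19a1 passed in every such omission. Without probe sets whose name has the suffix _s, _x or _a, 10 of the 14 calls were made. Col2a1, Col6a2, Col9a3 and Col19a1 then had no value. Without both E10.5 replicate 1 arrays Col9a3 was lost (adjusted p = 0.0526). Of the 8 called members with a second usable probe set, 8 had it in the same direction and 6 had it called too. The exceptions were Col5a1, whose second probe set gave 0.63 (adjusted p = 0.195), and Col9a1, whose second gave 0.74 (0.132).

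The trunk change was also followed day by day. Without a filter the median of all 36 members was 0.65 over that day and 0.18 over the next, and 0.49 and 0.2 when both E10.5 replicate 1 arrays were left out too. Between E9.5 and E10.5 9 tested collagens rose and 0 fell, where 5.47% of all genes tested rose and 1.75% fell. Without a filter 10 of all 36 members rose, where 2.89% of genes did. They were the same 9 and Col12a1 of the other class, which was not tested with the filter. Its trunk signals were 14 and 14 at E9.5 and 86.7 and 105.7 at E10.5. It lay below the median probe set on all 12 arrays, so its rise is not a usable measure. The 9 were Col3a1 (log2 1.11 ± 0.26, adjusted p = 0.0238), Col5a1 (0.93 ± 0.22), Col5a2 (0.74 ± 0.18), Col9a1 (1.42 ± 0.26), Col11a1 (2.04 ± 0.43), Col6a1 (2.60 ± 0.42), Col6a3 (2.65 ± 0.42), Col14a1 (1.68 ± 0.30) and Col19a1 (2.36 ± 0.57). Fibril formers, cartilage chains, type VI and fibril-binding collagens were thus all among them, and this comparison shares the E9.5 arrays with the longer one. The number depended on single arrays. Without trunk E10.5 replicate 1, Col6a3 alone still passed, and the other 8 had adjusted p from 0.0512 to 0.292. Without both E10.5 replicate 1 arrays the number was 2, Col6a3 (log2 1.83, adjusted p = 0.0235) and Col14a1 (1.81, 0.046). Without trunk E9.5 replicate 1 it was also 2, and 7 were lost (adjusted p 0.0815 to 0.279). Omission of E10.5 replicate 2 took out Col3a1, Col5a1, Col5a2, Col14a1 and Col19a1 (0.0606 to 0.132) and omission of E9.5 replicate 2 took out Col19a1 (0.0876). Without probe sets of suffix _s, _x or _a, 7 collagens rose, Col14a1 being lost (0.66, adjusted p = 0.412) and Col19a1 having no value.

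From E10.5 to E11.5 no collagen passed in trunk, where 0.0259% of all genes did, 2 in number; 599 genes had an unadjusted p under 0.05. Col6a3 gave 0.62 ± 0.42 over this day, Col14a1 1.19 ± 0.30 (adjusted p = 0.274) and Col5a2 0.53 ± 0.18. Col13a1 gave −1.12 ± 0.23 (adjusted p = 0.149), the larger share of its fall.

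In head cells few collagens changed. From E9.5 to E10.5 and from E10.5 to E11.5 no collagen passed, where 0.96% and 0.973% of all genes tested did (1207 and 1300 at an unadjusted p under 0.05). Over the whole interval Col6a3 rose and Col18a1 fell, 2 of 23, where 2.67% of genes rose and 2% fell, so the number is near the background. Both calls were narrow: Col6a3 was lost without any 1 of the 4 head arrays of E9.5 and E11.5 (adjusted p 0.0568 to 0.0796). Col18a1 was lost without any of those 4 or either trunk E10.5 array (0.053 to 0.217), and without both E10.5 replicate 1 arrays (0.0795). Without a filter the median of all 36 members was 0.15 in head, beside 0.91 in trunk.

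Whether the courses of head and trunk differed was tested directly, as the head change from E9.5 to E11.5 minus the trunk change. Of the 23 tested collagens 0 were called higher and 2 lower, Col11a1 and Col14a1, where 0.285% and 1.21% of all genes were. Col11a1 gave −3.31 ± 0.60 (adjusted p = 0.0194) and Col14a1 −2.68 ± 0.43 (adjusted p = 0.00902) on the log2 scale. In both, the trunk rise passed and the head change did not. The sign was negative for 19 of the 23, beside 49% of all genes tested, and the median of all 36 members without a filter was −0.67. The smallest adjusted p among the others, none of which passed, were those of Col5a2 (−1.12, adjusted p = 0.0624), Col5a1 (−1.29, 0.0814), Col9a1 (−1.48, 0.0828), Col3a1 (−1.31, 0.117) and Col6a1 (−1.97, 0.155). For Col4a1 the difference was −0.02 (95% confidence interval −0.52 to 0.49).

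The Col14a1 difference passed in every omission of 1 array. That of Col11a1 was lost without trunk E9.5 replicate 1 (−2.92, adjusted p = 0.0819), head E11.5 replicate 2 (−3.07, 0.0731), trunk E11.5 replicate 1 (−3.10, 0.0695), head E9.5 replicate 1 (−3.20, 0.0582) and head E9.5 replicate 2 (−3.42, 0.055). Their second probe sets pointed the same way: that of Col11a1 gave −2.48 and passed (adjusted p = 0.00761), whereas that of Col14a1 gave −1.76 and did not (0.263).

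Over the mean of the 3 stages, 2 tested collagens were higher and 4 lower in head than in trunk, where 6.83% of all genes tested were higher and 3.63% lower. Without a filter the counts over all 36 members were again 2 and 4, where 4.16% and 2.1% of genes were, with a median of −0.28. Col14a1 was lower in head by at least 4.24-fold (log2 −2.22 ± 0.17, n = 6 arrays per tissue, adjusted p = 7.97e-06). Col4a5, a chain of specialised basement membranes such as those of kidney and smooth muscle, was lower 2.13-fold (−1.09 ± 0.14, adjusted p = 0.000408). Its signal was 557.5 and 466, 712 and 499.9, and 297 and 404 in head at the 3 stages, and 829 and 910, 1162 and 1076, and 1277 and 867 in trunk. The tissues did not overlap.

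Col1a2 and Col5a1 were lower in head by 0.74 ± 0.17 and 0.53 ± 0.13 on the log2 scale (adjusted p = 0.0132 and 0.0208), with overlapping arrays. The second Col1a2 probe set gave −0.25 and did not pass (adjusted p = 0.521). The Col1a2 call was thus lost without probe sets of suffix _s, _x or _a. Col13a1 was higher in head 1.91-fold (log2 0.94 ± 0.13, adjusted p = 0.000706). Col15a1 was higher by at least 1.32-fold (1.48 ± 0.39, adjusted p = 0.0304); its signal reached 224 in head and 120 in trunk, and 7 of the 12 arrays lay below the median. The Col5a1 call was lost without trunk E10.5 replicate 1 (adjusted p = 0.074), trunk E9.5 replicate 2 (0.0614) or head E9.5 replicate 2 (0.0552), and without both E10.5 replicate 1 arrays (0.0791). The Col15a1 call was lost without any 1 of 6 arrays, replicate 2 of head E9.5, head E10.5 and every trunk stage, and replicate 1 of head E11.5 (0.0693 to 0.0984).

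The head to trunk difference was positive for 4 of the 6 fibrillar members at E9.5, among them Col5a2, and for 0 of 6 at E10.5 and at E11.5. The medians were 0.17, −0.50 and −0.71, and the median at E10.5 was −0.84 without both replicate 1 arrays. The 6 include Col5a3, which was not tested and was negative at all 3 stages. Col1a1 was positive at E9.5 by only 0.02. Over all genes tested 51.1%, 51% and 47.3% of the differences were negative at the 3 stages. No fibrillar member passed the test of the difference in change. These values share their trunk E9.5 arrays with the trunk changes above and are given beside them, not as added support. At E9.5, 2 tested collagens were higher in head and 0 lower, where 4.69% of all genes tested were higher and 1.23% lower: Col5a2 (1.66-fold, log2 0.73 ± 0.18, adjusted p = 0.0338) and Col6a1 (at least 1.04-fold, 1.65 ± 0.42, adjusted p = 0.0386). Without a filter 1 of the 36 was, where 2.67% of genes were, so the number is near the background. Col5a2 was lost without trunk E9.5 replicate 1, either head E9.5 array or head E10.5 replicate 2 (0.0501 to 0.284), and without both E10.5 replicate 1 arrays (0.0721). Col6a1 was lost without any E9.5 array or either trunk E11.5 array (0.0568 to 0.238).

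At E10.5, 0 were higher and 2 lower in head, where 2.45% of all genes were higher and 2.11% lower. They were Col14a1 (at least 4.31-fold, −2.24 ± 0.30, adjusted p = 0.00208) and Col5a1 (1.92-fold, −0.94 ± 0.22, adjusted p = 0.0374). Col5a1 was lost without any 1 of the 4 E10.5 arrays (0.0891 to 0.237), and without both replicate 1 arrays Col14a1 alone passed (−2.72, adjusted p = 0.0245). Without probe sets of suffix _s, _x or _a the Col14a1 difference was −1.14 and did not pass (adjusted p = 0.145).

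At E11.5, 1 was higher and 4 lower in head, where 0.687% and 1.36% of all genes were. Col14a1 was at least 11.4-fold lower (−3.55 ± 0.30, adjusted p = 9.76e-05), Col11a1 3.6-fold (−1.85 ± 0.43, 0.0487), Col4a5 3.04-fold (−1.60 ± 0.25, 0.00671) and Col5a1 1.96-fold (−0.97 ± 0.22, 0.0487). Col13a1 was 2.99-fold higher (1.58 ± 0.23, adjusted p = 0.00434). Each of the 4 classes thus had a member lower in head at this stage, and the groups of these 5 genes did not overlap. Only Col14a1 passed in every omission of 1 array. Col13a1 was lost without trunk E11.5 replicate 1 (0.0528) and Col4a5 without that array or head E11.5 replicate 1 (0.0735 and 0.0576). Col11a1 was lost without any E11.5 array or either head E9.5 array (0.0644 to 0.282), and Col5a1 without any E10.5 or E11.5 array (0.0501 to 0.233). Both calls were lost without a filter too (adjusted p = 0.066 for Col11a1 and 0.0545 for Col5a1), and that of Col5a1 without both E10.5 replicate 1 arrays (0.0914).

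**Figure D4:**
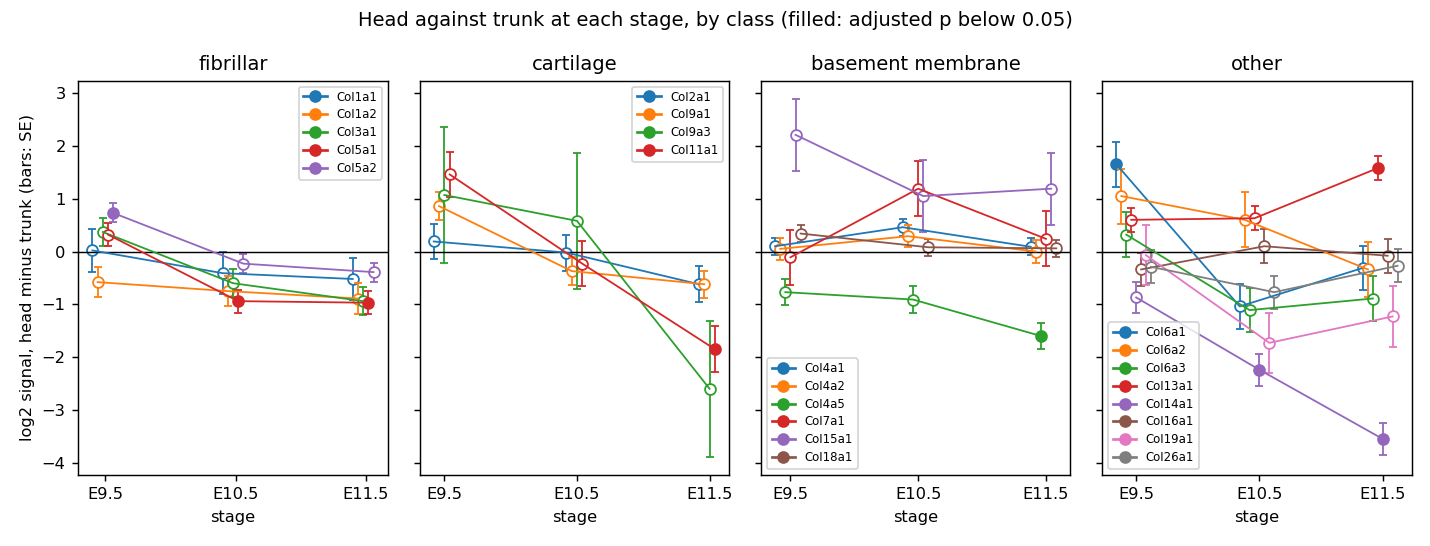
Log2 difference in signal, head minus trunk (vertical axis), at E9.5, E10.5 and E11.5 for the 23 collagens tested, 1 panel per class; bars are the SE from limma and filled points passed the threshold. Of the fibrillar genes, Col5a2 starts above 0 and ends below it and Col1a2 is below 0 at all stages, Col14a1 descends to −3.55, Col13a1 climbs to 1.58, and Col4a1, Col4a2 and Col18a1 stay close to 0.

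Several members are neighbours in the RefSeq gene table. The adjoining genes Col3a1 and Col5a2 both rose in trunk, as did Col9a1 with Col19a1 and Col6a1 with Col6a2. The neighbours Col4a1 and Col4a2 both kept intervals that include 0 in both tissues. The neighbours Col4a5 and Col4a6 are transcribed away from each other, from annotated starts 1343 bases apart. Of these, the first was bright on all 12 arrays and the second was above the median probe set on 1.

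Collagen chains need enzymes and chaperones in the endoplasmic reticulum, and most of these did not pass in either tissue between E9.5 and E11.5. Of 16 tested genes of modification and folding, 2 rose and 1 fell in trunk, and 0 rose and 1 fell in head. These numbers are near the background of all genes tested, 8.71% rising and 4.71% falling in trunk and 2.67% and 2% in head. Sparc, a matrix protein that binds collagen and aids its assembly, rose 5.34-fold in trunk (log2 2.42 ± 0.26, adjusted p = 0.000129), from 252 and 421 to 1724 and 1756. In head Sparc gave 0.13 ± 0.26, and the difference between the tissues passed (−2.28 ± 0.36, adjusted p = 0.00907). The prolyl hydroxylase relative P3h3 also rose in trunk (1.47 ± 0.26, adjusted p = 0.00325), and the lysyl hydroxylase Plod1 fell (−1.32 ± 0.32, adjusted p = 0.0178). Serpinh1, the collagen-specific chaperone, gave 0.22 ± 0.17 in trunk and −0.30 ± 0.17 in head (adjusted p = 0.459 and 0.421). In head the prolyl hydroxylase subunit P4ha1 fell (−0.90 ± 0.21, adjusted p = 0.0283).

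Of 7 tested genes that trim procollagen or crosslink the fibrils, 4 rose and 1 fell in trunk, and 2 rose and 1 fell in head, beside the same shares over all genes. The crosslinking oxidase Lox rose in both, by at least 3.28-fold in trunk (log2 2.69 ± 0.40, adjusted p = 0.00104) and 4-fold in head (2.0 ± 0.40, adjusted p = 0.0143). Its relatives Loxl1 (2.27 ± 0.31) and Loxl3 (1.23 ± 0.30) rose in trunk (adjusted p = 0.000598 and 0.0168). The enhancers of procollagen cleavage went opposite ways. Pcolce rose in trunk (1.0 ± 0.21, adjusted p = 0.00984) and gave −0.64 ± 0.21 in head, a difference of −1.64 ± 0.30 (adjusted p = 0.0199). Pcolce2 went from 178 and 218 to 872 and 767 in head and from 180 and 122 to 64.7 and 59 in trunk. The head rise was 4.15-fold (adjusted p = 0.000949), the trunk fall at least 1.35-fold (adjusted p = 0.00831), and the difference 3.31 ± 0.37 (adjusted p = 0.00113). The crosslinking transglutaminase Tgm2 fell in head (−1.47 ± 0.24, adjusted p = 0.00435).

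Among receptors, 2 of 4 tested rose in trunk and 1 in head, where 8.71% and 2.67% of all genes did. The collagen-activated kinases Ddr1 and Ddr2 gave 1.48 ± 0.22 and 1.41 ± 0.34 in trunk (adjusted p = 0.000952 and 0.0171), and Ddr1 rose in head too (0.88 ± 0.22, adjusted p = 0.0374). Of 9 tested genes of collagen breakdown, 3 rose in trunk and 2 in head, beside those shares. The gelatinase Mmp2 rose in trunk (1.45 ± 0.20, adjusted p = 0.000694) and gave 0.14 ± 0.20 in head, a difference that passed (−1.31 ± 0.29, adjusted p = 0.0462). The protease inhibitor Timp2 rose in both (1.17 ± 0.27 and 1.10 ± 0.27). The inhibitor Reck rose in trunk (0.80 ± 0.19) and the membrane protease Mmp16 in head (1.08 ± 0.21).

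Of 7 tested regulators of collagen genes, 1 rose in trunk, the TGF-beta receptor Tgfbr2 (1.29 ± 0.22, adjusted p = 0.0026), and 0 changed in head. With 8.71% of all genes rising in trunk, 1 of 7 is near the background. Sox9, the activator of cartilage collagens, gave −0.24 ± 0.38 in trunk and −0.67 ± 0.38 in head (adjusted p = 0.755 and 0.404). Over the mean of the stages Sox9 was lower in head (−0.79 ± 0.22, adjusted p = 0.0384), as was its partner Sox6 (−0.59 ± 0.13, adjusted p = 0.0108).

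**Figure D5:**
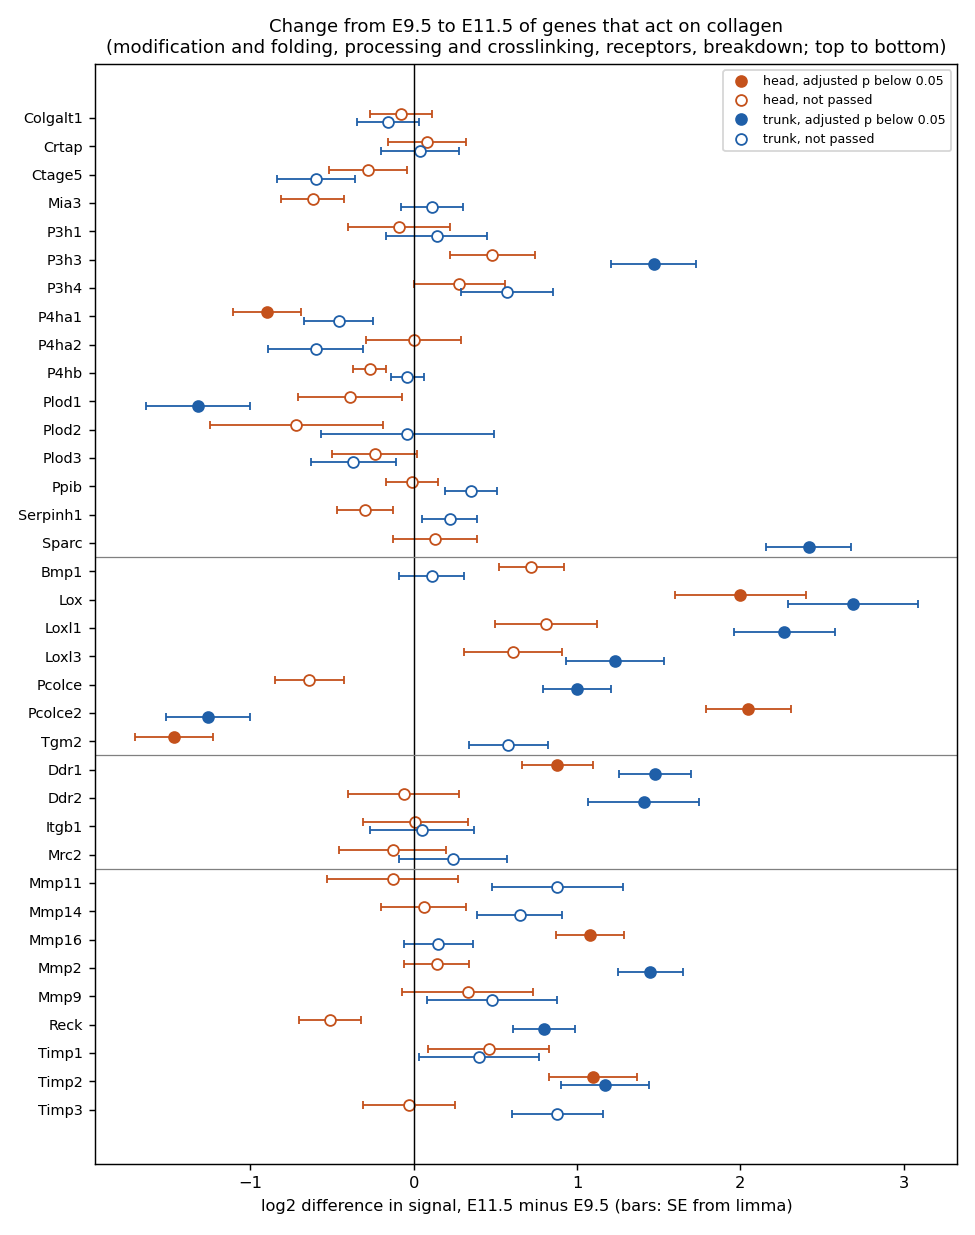
Log2 difference in signal from E9.5 to E11.5 (horizontal axis) of the tested genes that modify, process, bind or break down collagen, grouped from top to bottom, in head (orange) and trunk (blue); bars are the SE from limma and filled points passed the threshold. Sparc, Loxl1 and Mmp2 lie far right in trunk and near 0 or closer to it in head, Lox lies right in both, and Pcolce2 lies on opposite sides.

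Markers of other cell types moved with several of these groups. Of 10 fibroblast and connective tissue markers, 7 were tested. In trunk 4 rose from E9.5 to E11.5 and 0 fell, where 8.71% of all genes tested rose and 4.71% fell. In head 0 rose and 1 fell, where 2.67% of all genes tested rose and 2% fell. The summed signal of the list went from 5928 to 6563 up to 11849 to 11865 in trunk. In head it went from 5391 to 5832 up to 5971 to 6876. A large part of these sums came from Tcf4, 1 of the 7 tested, a gene not particular to connective tissue. Its signal was 2865 and 2425 in trunk at E9.5 and 3209 and 3572 at E11.5. In head it was 2586 and 2355, then 3323 and 3098. Postn rose 10.8-fold in trunk (log2 3.44 ± 0.24, adjusted p = 7.3e-06), Dcn at least 7.78-fold (3.86 ± 0.43) and Lum 6.79-fold (2.76 ± 0.37), and the tissues differed for each of the 3 (−2.98, −3.26 and −4.33; adjusted p = 0.00121, 0.0207 and 0.00166). Twist2 rose 2.36-fold. The defining markers Dpt, Osr1 and Osr2 lay below the median probe set on all arrays. These values stand beside the fibrillar, type VI and Col14a1 rise in trunk, and their part in it was not tested.

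Of 10 cartilage and sclerotome markers, Acan, Matn1, Matn3, Matn4, Comp, Cnmd and Nkx3-2 lay below the median on all 12 arrays. The summed signal of the list was 1047 to 1260 in trunk at E9.5 and 547 to 816 at E11.5, and 973 to 1191 and 349 to 426 in head. Hapln1 went from 393.6 and 348.4 to 83.7 and 60.4 in trunk, and from 748.6 and 646.7 to 69.2 and 42.6 in head. Pax1 was brighter in trunk, at 371 and 642, then 425.4 and 196.5, against 136.5 and 76.4, then 61.7 and 52 in head. Pax9 went from 133.7 and 151.6 to 113.4 and 103.4 in trunk, and from 131.7 and 110.6 to 86.4 and 121.5 in head. Of the 3 tested, 0 rose and 1 fell in trunk, beside 8.71% and 4.71% of all genes tested. The cartilage collagens rose there.

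Beside the higher Col15a1 of head stood the endothelium markers, of which 9 of 9 tested were higher in head over the mean of the stages. Their summed signal was 2547 to 3693, 4731 to 4812 and 1780 to 2853 in head at the 3 stages and 689 to 734, 1224 to 1446 and 762 to 1128 in trunk, with Pecam1 below the median on all arrays. Markers of neurons (10 of 10), epithelium (8 of 10) and macrophages (4 of 5) were higher in head as well. Over all genes tested 6.83% were higher in head in this comparison. In trunk 9 of 10 neuron markers rose from E9.5 to E11.5, with summed signals of 751 to 1209 and 5947 to 8029, while 6 of 10 epithelium markers fell. Over all genes tested 8.71% rose and 4.71% fell in trunk. In head, where Col18a1 fell, 9 of 10 epithelium markers fell over the same interval, beside 2% of all genes tested. The summed signal of these markers went from 7423 to 8306 down to 1824 to 1853. The keratin gene Krt8 gave −3.54 there. Their part in the collagen differences was not tested.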

How the data were processed

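Per the labels, RNA of the sorted fluorescent cells was isolated with QIAzol and amplified, and biotinylated cRNA went onto Affymetrix mouse arrays. The deposited values are linear probe set signals with intensity as their unit, made with MAS5 and Affymetrix Expression Console per the submitters' processing notes, which give no versions. Any later normalization was not given in the sources used here. From the deposited intensity log2 was taken, with no other normalization. Of 22690 probe sets, 64 controls were left out and by the platform annotation 20380 had 1 gene, 691 had several and 1555 had none. Symbols were checked through Entrez identifiers (20351 matched, 29 did not, 0 changed).

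limma 3.58.1 (R 4.3.3) fitted 1 mean per group over the 12 arrays, with empirical Bayes moderation that follows the intensity (6 residual degrees of freedom, 5.9 prior). The 11 comparisons were two-sided. The number of arrays limits the precision. The procedure was tested on simulated data. Every collagen called with the filter is named. Of the other lists up to 4 members of smallest p are named, plus Sox9 and Serpinh1. The members, classes, lists and tests were chosen with earlier results of these data known. Alternatives were quantile normalization, no filter, a filter of 6 arrays, log2(signal + 16), a replicate block, and exclusion of probe sets of suffix _s, _x or _a. Omission of arrays and counting type II and XI genes as fibrillar were further alternatives. Testing every probe set, and medians without a filter and without both E10.5 replicate 1 arrays, were added after the data were seen.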

Additional observations from a re-analysis of the deposited data

Results flagged for a closer look

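Head and trunk differed in how they changed over the interval E9.5 to E11.5, by the test of the difference itself, for Col11a1 (head minus trunk −3.31 ± 0.60 on the log2 scale, SE from limma, adjusted p = 0.0194) and for Col14a1 (−2.68 ± 0.43, adjusted p = 0.00902). Groups of 2 arrays are too small to look for single arrays that stand far from the rest.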

How the results depend on the processing

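Of 42 calls on single collagens, 16 held whichever 1 of the 12 arrays was left out, and 0 changed direction in any setting run. With 1 array left in a group, that array is assumed to vary like the others. The number of collagens called, with the lowest and highest over these omissions, was 6 (4 to 8) between head and trunk averaged over stages, 2 (0 to 3) at E9.5, 2 (1 to 2) at E10.5 and 5 (1 to 5) at E11.5. In head it was 0 (0 to 2) from E9.5 to E10.5, 0 (0 to 0) from E10.5 to E11.5 and 2 (0 to 4) over both. In trunk it was 9 (1 to 11), 0 (0 to 0) and 14 (8 to 15), and for the difference between the changes 2 (1 to 6). The most calls of that difference came without trunk E9.5 replicate 2, and of the head change without head E10.5 replicate 2. Without a filter 1 was called at E9.5 and 3 at E11.5 between head and trunk, Col11a1 and Col5a1 being lost at E11.5; with log2(signal + 16) 1 was called at E9.5. Without probe sets of suffix _s, _x or _a, 1 was called at E10.5 (Col14a1 lost). For the difference between the changes 1 was called, where Col14a1 gave −1.76 (adjusted p = 0.216). The same setting gave 10 calls in trunk from E9.5 to E11.5 and 7 from E9.5 to E10.5, and left Col2a1, Col6a2, Col9a3 and Col19a1 with no value. Without both E10.5 replicate 1 arrays 1 was called between head and trunk at E10.5 and 2 in trunk from E9.5 to E10.5. With types II and XI counted as fibrillar, the cartilage calls in trunk from E9.5 to E11.5 were 2 and the fibrillar ones 6. Quantile normalization changed no call. The causes were not tested beyond the fewer genes or arrays each setting holds.

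Over all genes tested, same-numbered arrays showed no common deviation (r −0.3 to 0.169 over 15 pairs of groups, 2 of them over 0.1). The numbers are therefore not taken as pairs. For head and trunk at E10.5, where both replicate 1 arrays had low Xist, this r was −0.002. Replicate 1 was nevertheless above replicate 2 there for 21 of 23 collagens in head and 17 of 23 in trunk. Whether these arrays shared embryos was not tested. With a replicate block 14 collagens were called in trunk from E9.5 to E11.5, 2 for the difference between the changes, and 4 in place of 5 between head and trunk at E11.5, Col5a1 being lost (adjusted p = 0.0645); at E9.5 Col6a1 was lost (0.0533). Signals below the median probe set limit what can be said of the 13 untested collagens and of Col9a3, Col15a1 and Col19a1.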
